A study of Homo sapiens with 12 samples.

Results

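The 9 genes TYR, TYRP1, DCT, PMEL, MLANA, GPR143, SLC45A2, OCA2 and SLC24A5 encode enzymes of melanin synthesis, proteins of the melanosome matrix and membrane, and transporters of the melanosome. They were taken by name from the 35579 genes to which the estimated counts were summed, and all 9 were among the 15098 genes with enough counts to be tested. RNA was sequenced from WM-266-4, a human melanoma cell line in which the receptor tyrosine kinase TYRO3 was stably depleted with a lentiviral shRNA and which was kept in 1 μg/ml puromycin. All 4 groups, the controls included, carried this knock-down. The cells were transfected with a plasmid encoding GFP, wild-type TYRO3 (WT), TYRO3 with I449A, a variant resistant to cleavage by gamma-secretase (ΔGS), or TYRO3 with P408A, L409P and G419P, a variant resistant to cleavage by ADAM proteases (ΔADAM), and were starved of serum overnight. The labels call the control plasmid GFP, whereas the methods of the study name a vector control and a figure legend describes an empty plasmid without TYRO3. Each of 3 experiments gave 1 library per group, so that the 12 libraries form 4 groups of 3. The model is limited to 1 cell line with 1 shRNA, and p-values measure the spread between these libraries. The comparisons address how pigment gene transcripts differ when TYRO3 is returned to depleted cells and whether the cleavage-resistant variants differ from WT.

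Melanin is made in the melanosome, a lysosome-related organelle of pigment cells. Tyrosinase (TYR) oxidizes tyrosine and starts the pathway, and TYRP1 and DCT, its relatives, act on later intermediates of brown to black eumelanin. PMEL forms the fibrils on which melanin is laid down, MLANA (Melan-A) assists PMEL maturation, GPR143 is a melanosomal receptor mutated in ocular albinism, and SLC45A2, OCA2 and SLC24A5 set the ionic conditions of the organelle and are mutated or varied in albinism and pigmentation. Many of these genes are targets of MITF, the lineage transcription factor of melanocytes, which binds the M-box, a sequence with the core CATGTG, and of SOX10.

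Promoter windows of 300 bases, from 250 bases before to 50 bases after the RefSeq start on GRCh38.p14, were held for 7 of the 9 members, in 8 windows. PMEL and SLC45A2 had no entry. The core CATGTG was present, on either strand, in 6 of the 7 members, and in 11.1% of all 35116 promoter windows of this length. The longer TCATGTG, which contains CATGTG, was found in 5 of the 7 members and in 2.92% of all windows. The sequences below are shown because they hold each match of TCATGTG in the members' promoters, 2 of them in DCT and in GPR143, and the 1 match of CATGTG in OCA2. Each has 30 bases in the direction of the gene, and the capitals mark TCATGTG or its reverse complement CACATGA, and for OCA2 the shorter CATGTG.
TYR, chr11:89177759-89177788: agaaaagtcagTCATGTGcttttcagagga
TYRP1, chr9:12693229-12693258: ttggaagggaaTCATGTGctgatcaagtcc
DCT, chr13:94479799-94479828: tgcactttgggTCATGTGctaatgatgagg
DCT, chr13:94479879-94479908: tttggctggagCACATGAgcccagataaag
GPR143, chrX:9765890-9765919: gaggcccagggCACATGAtgccgcccccag
GPR143, chrX:9765862-9765891: agcccgcccagCACATGAcccaggcaggcc
SLC24A5, chr15:48120964-48120993: aggagactcctCACATGAtccagtttaatc
OCA2, chr15:28099450-28099479: gtgggcggggcCATGTGggcagctttgtgg
The windows of TYR, TYRP1 and SLC24A5 are on the plus strand and those of DCT, GPR143 and OCA2 on the minus strand. The first base of the motif lay -105 bases from the RefSeq start in TYR, -145 in TYRP1, -135 and -215 in DCT, -61 and -33 in GPR143, -15 in SLC24A5 and -153 in OCA2. TYR and TYRP1 each held a further match of the shorter CATGTG, at -12 and -11. TYRP1 thus held the same 7 letters as TYR and DCT. CACGTG was in 0 of the members' windows and in 7.26% of all windows. Of the SOX-type letters searched on both strands, ACAAAG was in the window of OCA2 (16.1% of all windows) and ACAATG in that of SLC24A5 (10.8%). A match describes letters and not a site in use.

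The total of estimated counts ranged from 4008293 to 38184838. The GFP library of experiment 1 was the shallowest, the next had 18365999, and the GFP library of experiment 2 was the deepest. TYRO3 was at 47.3 to 56.6 CPM (counts scaled to the size of the library) in the GFP libraries and at 1181 to 3694 CPM in the 9 libraries with a construct. With WT, ΔGS and ΔADAM it was at 3064, 3694 and 3284 CPM in experiment 1. The values were 1791, 1436 and 1215 CPM in experiment 2 and 1369, 1648 and 1181 CPM in experiment 3. This gene total includes reads of the plasmid. Of 8 markers of the melanocyte lineage, 0 were absent, and their summed level was 1737 to 1891 CPM with GFP and 1135 to 1740 CPM with the constructs. Of 5 keratinocyte markers, KRT5 and KRT1 were at 0 in each library, while KRT10 was at 30.3 to 51.8 CPM and made up most of the list's sum of 31.6 to 52.9 CPM. The 6 fibroblast markers together were at 77.3 to 101.4 CPM with GFP and 55.7 to 87.3 CPM with the constructs, and the 5 immune markers at 1.26 to 2.34 CPM.

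The members were compared with each other in TPM, a scale that accounts for transcript length. PMEL was the highest, with a mean of 975.7 TPM over the 12 libraries, followed by DCT with 91.4, MLANA with 21.9 and TYR with 9.497 TPM. PMEL made up 83.2% to 92.0% of the summed TPM of the 9 genes. SLC24A5 and GPR143 had means of 7.73 and 7.71 TPM, and SLC24A5 was the higher in 4 of 12 libraries. These were each GFP library and the WT library of experiment 3. GPR143 was the higher in the other WT libraries and in each ΔGS and ΔADAM library. The gap was small in some, with 7.37 TPM for SLC24A5 and 7.58 for GPR143 in the WT library of experiment 2. OCA2 had a mean of 4.50 TPM. TYRP1 and SLC45A2 were the lowest, with 1.97 and 1.69 TPM, and their order differed between the groups, since TYRP1 was below SLC45A2 in the GFP libraries and above it in the 9 libraries with a construct. This order rests on few counts. TYRP1 had 2 in the GFP library of experiment 1. In the WT library of experiment 2 the genes were at 1.40 and 1.37 TPM, on 16 and 30 counts. In the ΔGS library of experiment 2, 1.12 of the 2.67 TPM of TYRP1 were of TYRP1-202, a processed transcript. TYRP1 also varied the most, by 15.2 times between its lowest and highest library, and PMEL the least, by 1.77 times. TYR, the rate-limiting enzyme, was thus well below DCT and PMEL in each of the 12 libraries.

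**Figure D1:**
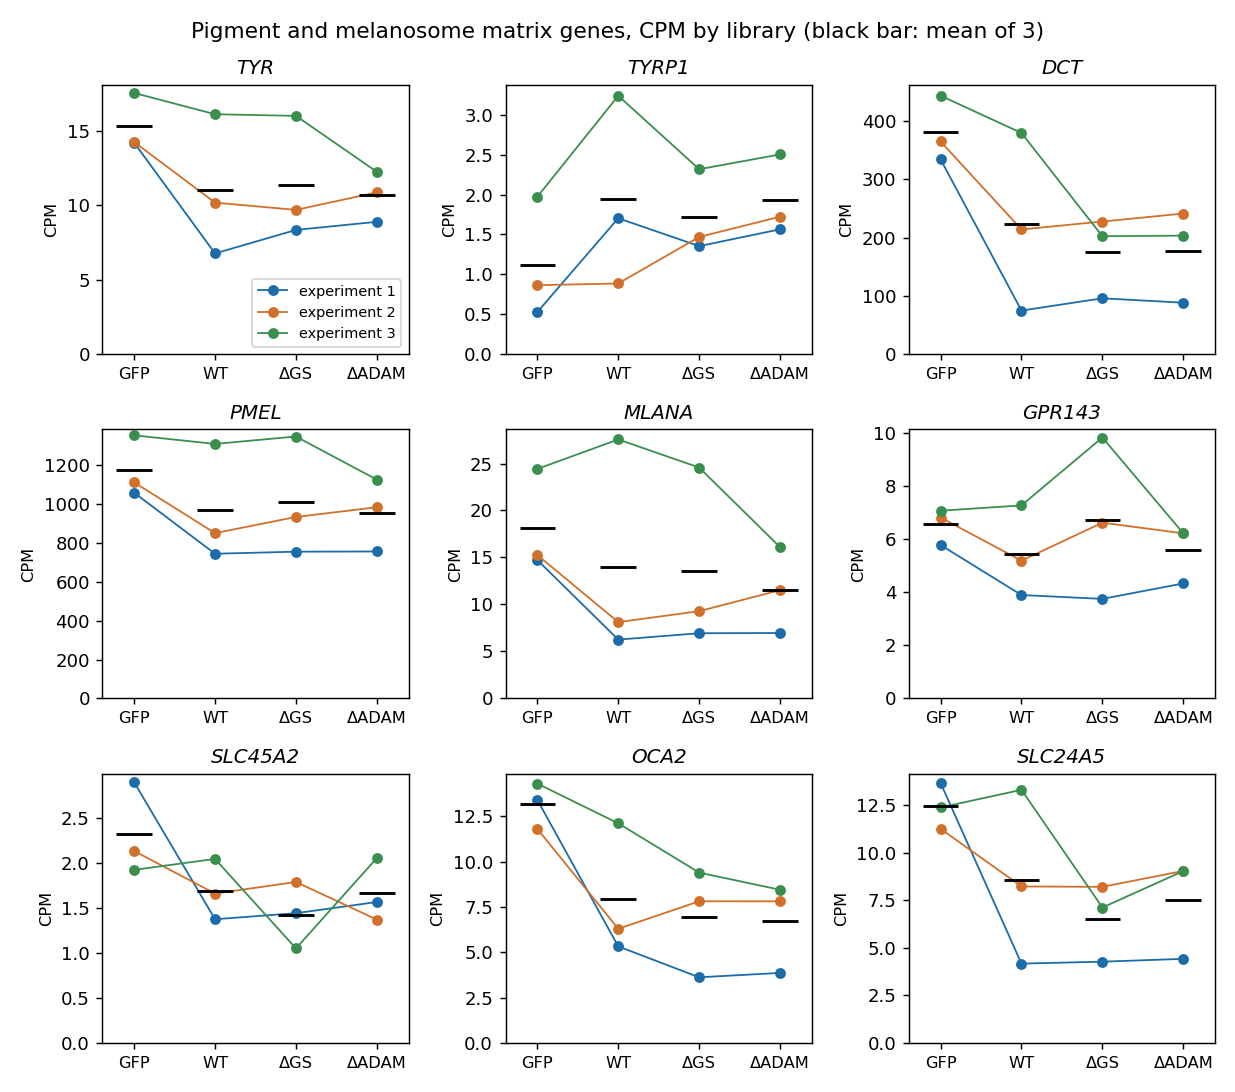
The CPM of each member (y axis from 0) in the GFP, WT, ΔGS and ΔADAM libraries (x axis), with a line for each experiment and a black bar for the mean of 3. DCT and OCA2 are lower in each ΔGS and ΔADAM library than in any GFP library, and TYRP1 is higher than GFP within each experiment.

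DCT and OCA2 were lower with ΔGS and ΔADAM than with GFP, and most other members lay on the same side without passing the test. The 3 comparisons with GFP share their control libraries, and in bulk RNA fewer cells with a transcript and less of it per cell cannot be told apart. A gene was called at an adjusted p of at most 0.05 in edgeR's quasi-likelihood test, with a term for each experiment, and a fold change over 1.5. With WT, 0 of the 9 members were called, where 0.689% of all genes tested were called lower and 1.66% higher. At an unadjusted p under 0.05 stood 4 members (TYR, DCT, PMEL and OCA2), as did 21.5% of all genes, and DESeq2 called 1, OCA2, where it called 4.67% of the 13049 genes to which it gave an adjusted p. With ΔGS, 2 members were called lower (1.88% of all genes) and 0 higher (2.81%), and with ΔADAM 2 lower (2.05%) and 0 higher (3.15%). With the mean of the 3 constructs, 2 members were called lower (2.19%) and 0 higher (3.48%). Of the 9 fold changes, 8 were below 0 with WT, 7 with ΔGS and 8 with ΔADAM, with medians of -0.49, -0.52 and -0.49 on the log2 scale, whereas the medians over all genes tested were 0.00, 0.01 and 0.00.

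**Figure D2:**
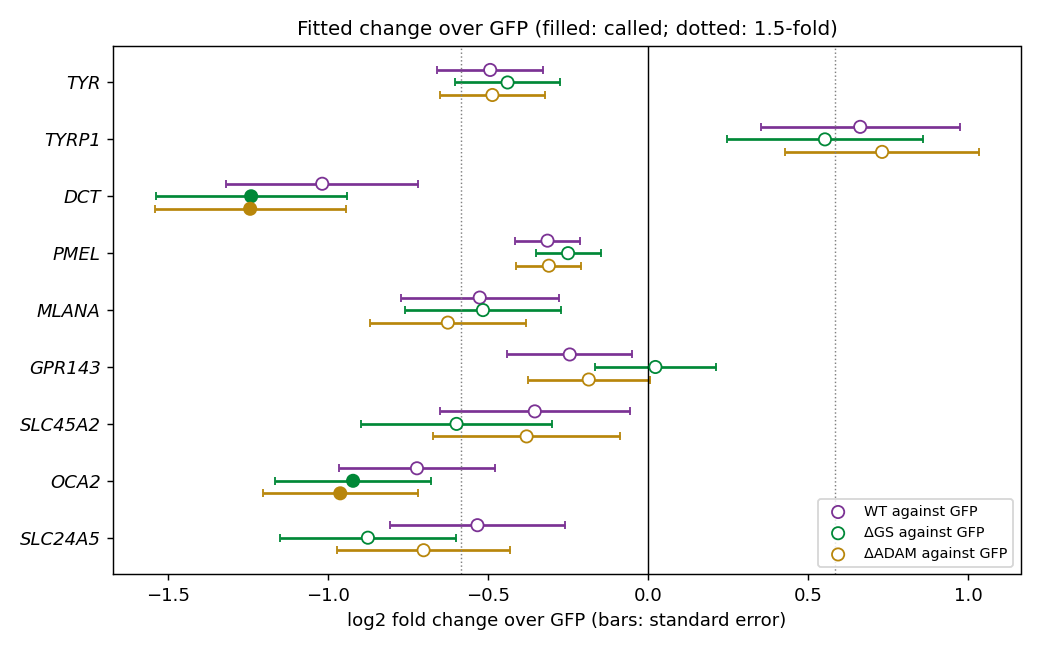
The fitted log2 fold change over GFP (x axis) of each member (y axis) with WT, ΔGS and ΔADAM. The bars are standard errors, filled points were called and dotted lines mark a change of 1.5 times. The called points are DCT and OCA2 with ΔGS and ΔADAM, and TYRP1 has its 3 points above 0.

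DCT, dopachrome tautomerase (ENSG00000080166, chr13:94436808-94479682, minus strand), had the largest differences among the members. Its level in experiments 1, 2 and 3 was 334.5, 365 and 444 CPM with GFP, 74.5, 214 and 379.8 CPM with WT, 95.7, 228 and 202 CPM with ΔGS, and 88.1, 241 and 203 CPM with ΔADAM. The ΔGS and ΔADAM libraries were all below the GFP libraries, whereas the WT library of experiment 3 lay among them. DCT fell with ΔGS by 1.24 on the log2 scale (SE 0.30, edgeR adjusted p = 0.02993), with ΔADAM by 1.24 (SE 0.30, edgeR adjusted p = 0.02857) and with the mean of the constructs by 1.17 (SE 0.23, edgeR adjusted p = 0.008626), to 42.3%, 42.2% and 44.5% of the GFP level. With WT the value was -1.02 (SE 0.30, edgeR adjusted p = 0.08439). In a fit without a term for each experiment, but with one for experiment 1 against 2 and 3, the edgeR adjusted p of DCT was 0.07256 with ΔGS and 0.06256 with ΔADAM, so that these calls were lost, and 0.02054 with the mean of the constructs. With neither term it was 0.322, 0.3057 and 0.1768, and all 3 calls were lost. Without the GFP library of experiment 1, DCT was at -0.78 (adjusted p = 0.1146) with ΔGS, -0.78 (adjusted p = 0.1123) with ΔADAM and -0.72 (adjusted p = 0.07223) with the mean of the constructs. The call with ΔGS was also lost without a ΔGS library (adjusted p = 0.0839, 0.0706 and 0.08568 without that of experiment 1, 2 and 3) or the ΔADAM library of experiment 1 (adjusted p = 0.05083), and the call with ΔADAM without the ΔADAM library of experiment 1 (adjusted p = 0.1266) or 3 (adjusted p = 0.1509). Without the WT library of experiment 3, DCT with WT was at -1.46 (adjusted p = 0.01384).

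TYR (ENSG00000077498, chr11:89177452-89295759, plus strand) was at 14.2, 14.2 and 17.5 CPM with GFP in experiments 1, 2 and 3. With WT it was at 6.76, 10.2 and 16.1 CPM, with ΔGS at 8.34, 9.68 and 16.0 CPM, and with ΔADAM at 8.88, 10.9 and 12.2 CPM. Each construct library was below the GFP library of its own experiment, and across experiments the ΔADAM group alone did not overlap GFP. The log2 fold changes were -0.49, -0.44 and -0.49 (SE 0.17, 0.17 and 0.16) with WT, ΔGS and ΔADAM, with edgeR adjusted p between 0.08393 and 0.1188. With the mean of the constructs TYR was at -0.47 (SE 0.14, edgeR adjusted p = 0.03799), past the threshold on p and short of a change of 1.5 times.

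TYRP1 (ENSG00000107165, chr9:12685439-12710290, plus strand), the third of the tyrosinase family, was the member with all 3 fold changes above 0. Its level was 0.526, 0.863 and 1.97 CPM with GFP in experiments 1, 2 and 3, which are 2, 32 and 39 estimated counts. It was 1.70, 0.884 and 3.24 CPM with WT, 1.35, 1.47 and 2.32 CPM with ΔGS and 1.56, 1.72 and 2.504 CPM with ΔADAM. Within each experiment the construct libraries were above GFP, and across experiments the groups overlapped. The log2 fold changes were 0.66 (SE 0.31) with WT, 0.55 (SE 0.31) with ΔGS and 0.73 (SE 0.30) with ΔADAM, with edgeR adjusted p of 0.2487, 0.2822 and 0.1468, so that no change was called. With the mean of the constructs TYRP1 was at 0.65 (SE 0.26, edgeR adjusted p = 0.1194), also not called. The 2 counts in the GFP library of experiment 1 gave a ratio of WT to GFP in that experiment of 3.24, with an exact 95% interval of 0.824 to 27.9 that covers counting error only. In TPM the GFP libraries were at 0.251, 0.691 and 1.33 and the 9 construct libraries at 1.40 to 3.81, without overlap. The share of all genes that did so in TPM was not computed. In CPM, where TYRP1 overlapped, 5.03% of all genes had each construct library above the GFP libraries. Part of the TPM was of TYRP1-202, a processed transcript, at 0 to 0.0164 TPM with GFP and 0 to 1.12 TPM with the constructs. Limma, run on TPM after adding 1 and taking log2, put TYRP1 past the threshold with each construct, at 1.02 with WT (adjusted p = 0.04206), 0.96 with ΔGS (adjusted p = 0.03871) and 0.87 with ΔADAM (adjusted p = 0.04649), where it called 1.54%, 2.77% and 3.31% of all genes. After adding 0.1 in place of 1, limma put TYRP1 at 1.76 with WT (adjusted p = 0.05113), short of the threshold, 1.71 with ΔGS (adjusted p = 0.04224) and 1.57 with ΔADAM (adjusted p = 0.04847). With 1 added, DCT and OCA2 missed it with ΔGS and ΔADAM (DCT adjusted p = 0.05178 and 0.06093, OCA2 adjusted p = 0.05476 and 0.05503).

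PMEL (ENSG00000185664, chr12:55954105-55973317, minus strand), the fibril protein, was at 1059, 1112 and 1354 CPM with GFP, 745, 851 and 1310.0 CPM with WT, 755, 934 and 1348 CPM with ΔGS, and 756, 984 and 1126 CPM with ΔADAM. Each construct library was below the GFP library of its experiment, and each group overlapped GFP across experiments. Its log2 fold changes were the smallest of the members below 0 apart from those of GPR143, at -0.31 with WT, -0.25 with ΔGS and -0.31 with ΔADAM (SE 0.10 for each). With the mean of the constructs, PMEL was at -0.29 (SE 0.08, edgeR adjusted p = 0.03538), or 81.7% of the GFP level, and did not reach 1.5 times.

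MLANA (ENSG00000120215, chr9:5890802-5910606, plus strand) was at 14.7, 15.3 and 24.4 CPM with GFP, 6.26, 8.12 and 27.6 CPM with WT, 6.94, 9.29 and 24.6 CPM with ΔGS, and 6.96, 11.5 and 16.1 CPM with ΔADAM. In experiments 1 and 2 the construct libraries were below GFP, and in experiment 3 those of WT and ΔGS were above it. The log2 fold changes were -0.53, -0.52 and -0.63 (SE 0.25, 0.24 and 0.24), with edgeR adjusted p from 0.1256 to 0.2501.

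GPR143 (ENSG00000101850, chrX:9725346-9786297, minus strand) had the values nearest to GFP. It was at 5.79, 6.82 and 7.08 CPM with GFP, 3.90, 5.19 and 7.28 CPM with WT, 3.75, 6.63 and 9.84 CPM with ΔGS, and 4.34, 6.23 and 6.23 CPM with ΔADAM. The groups overlapped. Its log2 fold changes were -0.24, 0.02 and -0.19 (SE 0.19 for each), with edgeR adjusted p from 0.5115 to 0.962. The sign with ΔGS turned under other settings, to -0.16 with limma on log2 TPM.

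OCA2 (ENSG00000104044, chr15:27754875-28099358, minus strand), a melanosomal anion channel, was at 13.4, 11.8 and 14.3 CPM with GFP in experiments 1, 2 and 3. It was at 5.33, 6.30 and 12.1 CPM with WT, 3.62, 7.82 and 9.40 CPM with ΔGS, and 3.87, 7.82 and 8.45 CPM with ΔADAM. The ΔGS and ΔADAM libraries were all below the GFP libraries, and the WT library of experiment 3 was just above the lowest GFP library. OCA2 fell by 0.92 on the log2 scale with ΔGS (SE 0.24, edgeR adjusted p = 0.04077), by 0.96 with ΔADAM (SE 0.24, edgeR adjusted p = 0.03306) and by 0.87 with the mean of the constructs (SE 0.20, edgeR adjusted p = 0.01498). With WT it was at -0.72 (SE 0.24, edgeR adjusted p = 0.1177), and DESeq2 gave -0.77 (adjusted p = 0.03343). With the term for experiment 1 against 2 and 3 in place of one for each experiment, the edgeR adjusted p of OCA2 was 0.1105 with ΔGS and 0.08763 with ΔADAM, which ended both calls, and 0.04219 with the mean of the constructs. With neither term it was 0.3058, 0.2545 and 0.147, which ended all 3. Without the GFP library of experiment 1, OCA2 was at -0.65 with ΔGS (adjusted p = 0.09421), -0.68 with ΔADAM (adjusted p = 0.08434) and -0.59 with the mean of the constructs (adjusted p = 0.06324). The call with ΔGS was lost when any 1 of 8 libraries was left out, namely the 3 GFP libraries, the 3 ΔGS libraries and the ΔADAM libraries of experiments 1 and 3 (adjusted p up to 0.1126), and that with ΔADAM without the GFP libraries of experiments 1 and 2 or the ΔADAM libraries of experiments 1 and 3 (adjusted p up to 0.1583).

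SLC24A5 (ENSG00000188467, chr15:48120972-48142672, plus strand), a potassium-dependent sodium-calcium exchanger, was at 13.7, 11.3 and 12.4 CPM with GFP, 4.17, 8.23 and 13.3 CPM with WT, 4.28, 8.21 and 7.13 CPM with ΔGS, and 4.43, 9.05 and 9.04 CPM with ΔADAM. Like DCT and OCA2, it did not overlap GFP with ΔGS or ΔADAM and overlapped it with WT. The log2 fold change was -0.53 with WT (SE 0.27, edgeR adjusted p = 0.2911), -0.88 with ΔGS (SE 0.28, edgeR adjusted p = 0.07213) and -0.70 with ΔADAM (SE 0.27, edgeR adjusted p = 0.1218), and it was not called. DESeq2 put SLC24A5 past the threshold with ΔGS (-0.95, adjusted p = 0.01063) and ΔADAM (-0.77, adjusted p = 0.04591), where it called 6.09% and 6.56% of the genes to which it gave an adjusted p. Without the GFP library of experiment 1, the edgeR values of SLC24A5 were -0.21 with WT (adjusted p = 0.7043), -0.54 with ΔGS (adjusted p = 0.1646) and -0.36 with ΔADAM (adjusted p = 0.3402).

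SLC45A2 (ENSG00000164175, chr5:33944616-33984730, minus strand), a melanosomal sugar and proton transporter, rested on 10.96 to 79.1 estimated counts per library. It was at 2.89, 2.13 and 1.92 CPM with GFP, 1.37, 1.66 and 2.04 CPM with WT, 1.44, 1.79 and 1.05 CPM with ΔGS, and 1.56, 1.37 and 2.05 CPM with ΔADAM. Only the ΔGS libraries were all below the GFP libraries. The log2 fold changes were -0.35, -0.60 and -0.38 (SE 0.30, 0.30 and 0.29), with edgeR adjusted p from 0.2271 to 0.537.

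Counted over the members, groups that did not overlap GFP and lay below it were 0 of 9 with WT (10.8% of all genes tested), 4 with ΔGS (DCT, SLC45A2, OCA2 and SLC24A5, against 9.9% of all genes) and 4 with ΔADAM (TYR, DCT, OCA2 and SLC24A5, against 13.7%). Below the GFP library of its own experiment in 3 of 3 experiments were 4 members with WT (26.3% of all genes), 6 with ΔGS (21.9%) and 7 with ΔADAM (27.1%). TYRP1 was the 1 member above GFP in 3 of 3 experiments with each construct (24.1%, 23.7% and 24.7% of all genes).

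**Figure D3:**
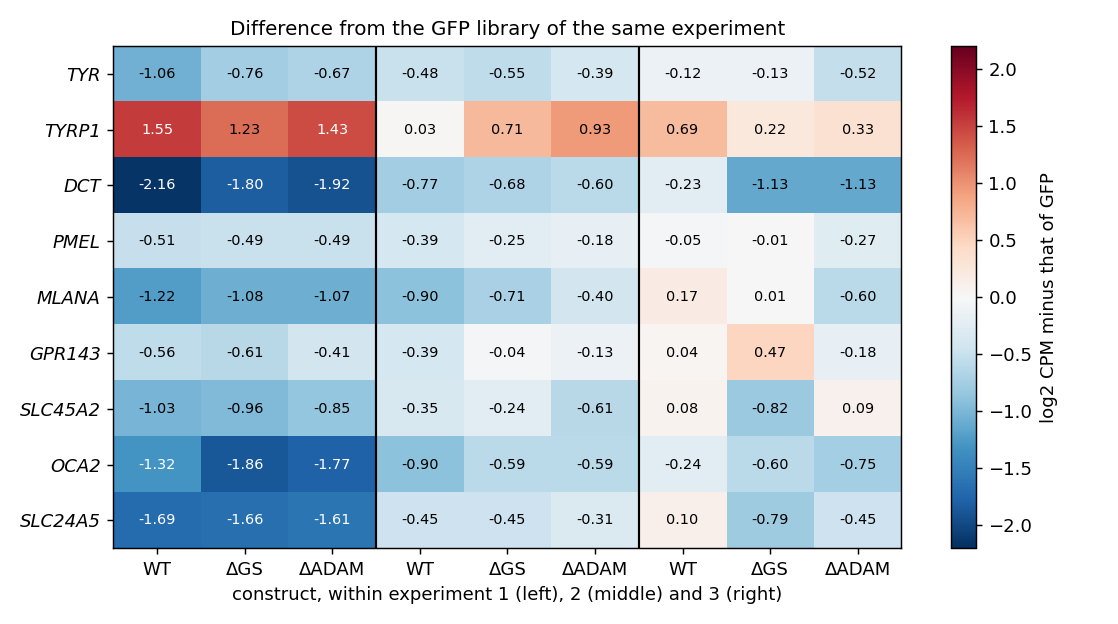
The log2 CPM of each member (rows) in a WT, ΔGS or ΔADAM library minus that of the GFP library of the same experiment (columns), with blue below and red above 0. The colours are deepest in experiment 1, where DCT reaches -2.16. With WT those of the members other than TYRP1 fade in experiment 3, where several values are near 0. With ΔGS and ΔADAM some do not fade, and DCT goes from -0.68 and -0.60 in experiment 2 to -1.13 with each in experiment 3.

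The differences from GFP were of unequal size between the experiments. In experiment 1, 8 of 9 members were below GFP with each construct, with medians over the members of -1.06 with WT, -0.96 with ΔGS and -0.85 with ΔADAM on the log2 scale. In experiment 2 it was again 8 of 9 with each, with medians of -0.45, -0.45 and -0.39. In experiment 3 it was 4 with WT, 6 with ΔGS and 7 with ΔADAM, with medians of 0.04, -0.13 and -0.45. The medians over all genes in the same libraries lay between -0.01 and 0.03. For DCT the differences were -2.16, -0.77 and -0.23 with WT, -1.80, -0.68 and -1.13 with ΔGS, and -1.92, -0.60 and -1.13 with ΔADAM. For each of the 9 members, TYRP1 included, the largest difference was the one in experiment 1 with each of the 3 constructs, as it was for 31.7% of all genes tested. These differences share the shallow GFP library of experiment 1, in which the mitochondrial transcripts made up 8.46% of the counts. The other libraries of that experiment were at 6.41% to 7.25%. Among the GFP libraries, that of experiment 1 held the lowest CPM of DCT (334.5), but the highest of SLC24A5 (13.7) and SLC45A2 (2.89). With WT, ΔGS and ΔADAM, DCT was at 74.5, 95.7 and 88.1 CPM in experiment 1, the lowest of each group. TYRO3 was at 3064 to 3694 CPM with the constructs in experiment 1 and at 1181 to 1791 CPM in experiments 2 and 3. The part of the depth, the mitochondrial share or the TYRO3 level in the result was not tested. From experiments 2 and 3 alone, DCT was at -0.89 with ΔGS, -0.83 with ΔADAM and -0.45 with WT, and 0 members were called by edgeR.

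Between the constructs no member was called. In WT against the mean of ΔGS and ΔADAM, 0 of 15098 genes were called (0%), with 237 at an unadjusted p under 0.05 and 5 called by DESeq2, and in ΔGS against ΔADAM 0 were called (0%), with 216 at an unadjusted p under 0.05 and 1 called by DESeq2. Of the 9 members, 0 had an unadjusted p under 0.05 in either. In WT against both variants the log2 fold changes of the members ran from -0.16 (GPR143) to 0.26 (SLC24A5), with SE from 0.09 to 0.25. DCT was at 0.22 (SE 0.25, edgeR adjusted p = 0.9997) and OCA2 at 0.22 (SE 0.21, edgeR adjusted p = 0.9997). In ΔGS against ΔADAM they ran from -0.22 (SLC45A2) to 0.21 (GPR143), and DCT was at 0.00 (SE 0.29, edgeR adjusted p = 0.9998). A difference of DCT between WT and the variants of the size of its SE was thus not detectable, and that DCT was called with the variants and not with WT does not show that these differ. In experiment 3 DCT was 0.91 above ΔGS and 0.90 above ΔADAM with WT, and in experiments 1 and 2 it was below both.

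The leading transcript, the one with the highest mean TPM, carried most of the gene in TYR (TYR-201, 86.4% to 100% of the gene's TPM), SLC24A5 (SLC24A5-201, 72.2% to 99.5%) and OCA2 (OCA2-201, 68.4% to 100%). DCT-201 held 62.4% to 85.2% of DCT and PMEL-204 18.4% to 48.9% of PMEL, with the 18.4% in the GFP library of experiment 1. Tested per transcript, 0 of the 33 member transcripts were called in any comparison with GFP by edgeR, where 0.00867% of all 69182 transcripts were called with WT, 0.00867% with ΔGS and 0.00578% with ΔADAM, and 7, 10 and 9 member transcripts stood at an unadjusted p under 0.05, against 5.81%, 7.48% and 6.87% of all transcripts. DCT-201 was at -0.98, -1.13 and -1.16 with WT, ΔGS and ΔADAM, close to the gene, and OCA2-201 at -0.96, -1.19 and -1.02. PMEL-204 was at 0.00, 0.14 and 0.02 (SE 0.17 for each), while PMEL-201 was at -0.37, -0.38 and -0.29 (SE 0.14 for each) and PMEL-219 at -1.16, -1.83 and -1.63 (SE 0.47, 0.47 and 0.46). TYRP1-201, the leading TYRP1 transcript, was at 0, 0.269 and 0.158 TPM with GFP and at 0.616 to 2.18 TPM with the constructs. Its log2 fold changes were 2.498, 2.31 and 2.03 (SE 0.77, 0.78 and 0.77), with edgeR adjusted p of 0.7355, 0.5784 and 0.6844. The second coding transcript, TYRP1-203, was at 0.04, -0.05 and 0.52 (SE 0.56, 0.54 and 0.54).

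**Figure D4:**
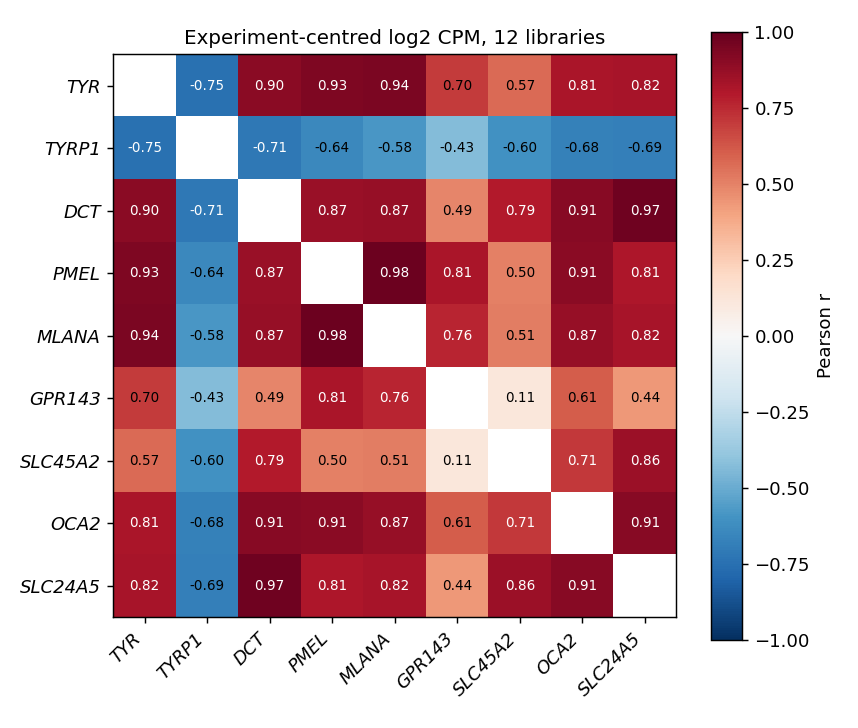
Pearson r between the members (both axes) of log2 CPM centred within each experiment, over 12 libraries, with red above and blue below 0. The row and column of TYRP1 are blue throughout, and the other 8 members are red among themselves.

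Across the 12 libraries, after centring within each experiment, the members other than TYRP1 varied together. The highest r was 0.979, between PMEL and MLANA, followed by 0.969 between DCT and SLC24A5. GPR143 and SLC45A2 were the loosest pair among these 8, with an r of 0.11. TYRP1 had a negative r with each of the other 8 members, from -0.75 with TYR to -0.43 with GPR143. The libraries share the contrast with GFP and their depth, so these values describe the 12 libraries. Among 9948 genes with a mean of at least 10 CPM, the 5 whose pattern was most like the mean of the members were GPNMB, a melanosomal glycoprotein, with an r of 0.987, PPM1H with 0.986, GRAMD4 with 0.982, SGCD with 0.982 and CPOX, an enzyme of heme synthesis, with 0.976.

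Among 17 regulators and receptors of melanocytes, 1 was called lower with WT, 4 lower and 1 higher with ΔGS, and 3 lower and 1 higher with ΔADAM. The shares of all genes tested were 0.689%, 1.88% and 2.05% lower and 1.66%, 2.81% and 3.15% higher with WT, ΔGS and ΔADAM. MITF was at 305.9, 305.5 and 337 CPM with GFP, 94.97, 230.3 and 254 CPM with WT, 123, 208 and 156 CPM with ΔGS, and 105, 214 and 157 CPM with ΔADAM. Each construct library was thus below the GFP libraries, as for 5.21% of all genes tested. MITF fell by 1.01 on the log2 scale with ΔGS (SE 0.22, edgeR adjusted p = 0.0215) and by 1.06 with ΔADAM (SE 0.22, edgeR adjusted p = 0.01766), and was at -0.81 with WT (edgeR adjusted p = 0.06706). SOX10, the partner of MITF on many pigment genes, was at -0.21, -0.32 and -0.38 with WT, ΔGS and ΔADAM and did not reach 1.5 times with any. IRF4, a factor that acts with MITF on TYR, fell by 1.00 with ΔGS (edgeR adjusted p = 0.01879) and by 1.02 with ΔADAM (edgeR adjusted p = 0.0163). TRPM1, a channel gene transcribed from an MITF-bound promoter, fell by 2.41 and 2.21, at 0.859 to 1.84 CPM with GFP and 0.0437 to 0.353 CPM with the variants, that is at a few counts. MC1R, the melanocortin receptor, fell by 0.65 with WT (edgeR adjusted p = 0.03873) and, at -0.58 and -0.57 with ΔGS and ΔADAM (edgeR adjusted p = 0.03197 and 0.03165), was just short of 1.5 times. ZEB2 fell by 0.63 with ΔGS (edgeR adjusted p = 0.025). SOX9 rose by 1.14 with ΔGS (edgeR adjusted p = 0.04545) and 1.18 with ΔADAM (edgeR adjusted p = 0.03787), from 0.526 to 1.16 CPM with GFP.

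Of 33 genes of melanosome sorting and transport, MYO5A, the motor that carries melanosomes along actin, was the 1 called, and it fell by 0.59 with ΔGS (edgeR adjusted p = 0.02892). MYO5A was at -0.25 with WT and -0.38 with ΔADAM. The share of all genes tested called lower with ΔGS was 1.88%. The medians of the 33 were -0.11, -0.14 and -0.13 with WT, ΔGS and ΔADAM. Of 19 other melanosome proteins, CAPN3 fell by 1.45 with ΔGS (edgeR adjusted p = 0.04011) and 1.58 with ΔADAM (edgeR adjusted p = 0.02856), and ATP7A, the copper pump that loads tyrosinase, fell by 1.01 (edgeR adjusted p = 0.01682) and 0.84 (edgeR adjusted p = 0.02746). SLC7A11, the cystine transporter that supplies cysteine for pheomelanin and glutathione, rose with each construct, by 1.14, 1.21 and 1.36 (edgeR adjusted p = 0.03087, 0.01621 and 0.009192). It was at 259 to 302 CPM with GFP and 362 to 1094 CPM with the constructs, without overlap, as were 5.03% of all genes tested in this direction.

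**Figure D5:**
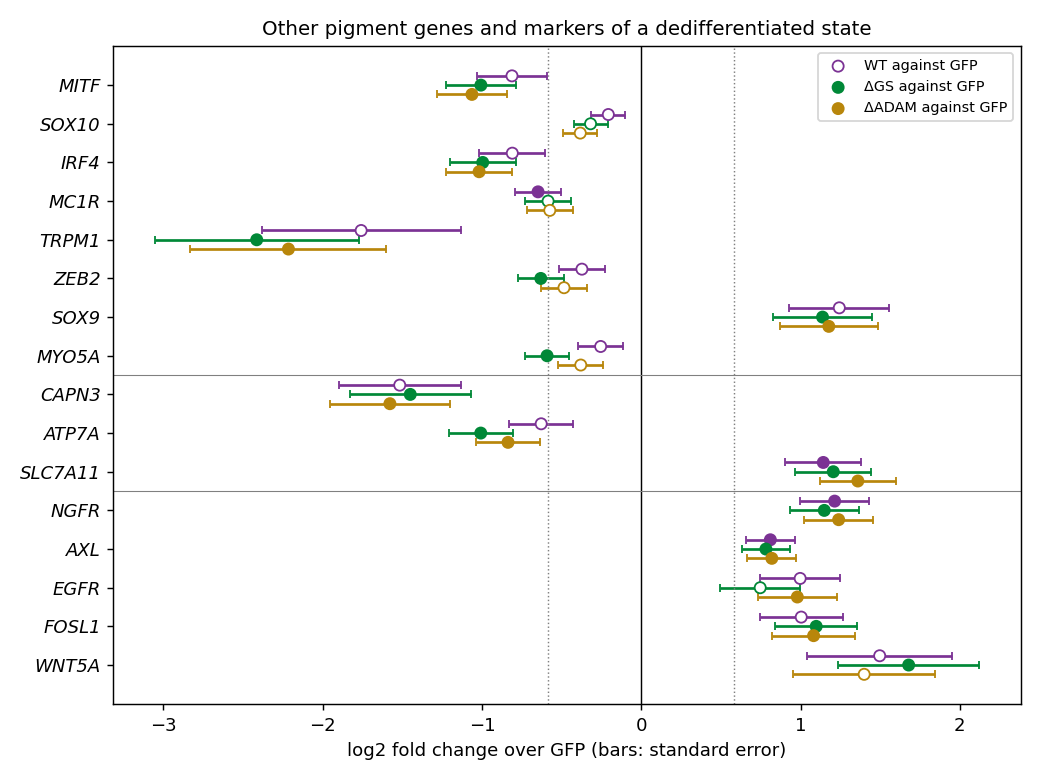
The fitted log2 fold change over GFP (x axis) of other pigment genes (the upper 11 rows) and of markers of a dedifferentiated melanoma state (the lower 5 rows) with WT, ΔGS and ΔADAM. The 5 markers are a selection from a list of 8. Of that list, SOX9 is among the upper rows, and TNC and CDH2, which were not called, are not shown. The bars are standard errors, filled points were called and dotted lines mark 1.5 times. MITF, IRF4, TRPM1, CAPN3 and ATP7A lie below 0, and SOX9, SLC7A11, NGFR and AXL above.

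Other gene groups moved in the same libraries. Beside their counts stand the shares of all genes called higher with WT, ΔGS and ΔADAM, 1.66%, 2.81% and 3.15%. Those called lower were 0.689%, 1.88% and 2.05%. Of 8 genes of the dedifferentiated, melanocyte-marker-low state of melanoma, 2 were called higher with WT and 5 each with ΔGS and ΔADAM, while the summed level of the list overlapped, at 900.3 to 1168 CPM with GFP and 779 to 1480 CPM with the constructs. NGFR rose by 1.21, 1.15 and 1.24 and AXL by 0.81, 0.78 and 0.82 with WT, ΔGS and ΔADAM. TNC, at -0.03, -0.23 and 0.00, and CDH2, at 0.01, -0.06 and 0.00, did not rise and were not called. All 10 interferon response genes of the list were called higher with each construct, at a summed 381 to 736 CPM with GFP, 881 to 2199 CPM with WT, 922 to 2115 CPM with ΔGS and 717.5 to 2548 CPM with ΔADAM. Of 8 genes of the amino acid response, 3, 6 and 6 were called higher, at a summed 733 to 1174 CPM with GFP and 1268 to 3191 CPM with the constructs. Of the 5 fibroblast markers tested, LUM was the 1 called, and it fell with each construct, by 0.69, 0.61 and 0.65. COL1A1, of the same list, was at 0.44, 0.44 and 0.33 (edgeR adjusted p = 0.1046, 0.07743 and 0.1589), and at 0.40 with the mean of the constructs (edgeR adjusted p = 0.04421), short of 1.5 times. DCN, at 0.166 to 1.84 CPM, was at -1.25, -0.99 and -1.42 (edgeR adjusted p = 0.1814, 0.2187 and 0.08614). PDGFRA was at -0.20, -0.16 and -0.21 and PDGFRB at -0.08, 0.07 and 0.29. The part of these groups in the values of the pigment genes was not tested.

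On the opposite strand, PMEL overlaps CDK2, MLANA overlaps KIAA2026, GPR143 overlaps TBL1X and SLC24A5 overlaps MYEF2. The kit keeps the strand, but the strand setting of the quantification is not given in the sources used here, so reads of these pairs may have been shared.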

How the data were processed

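After trimming by PRINSEQ and Trimmomatic, the authors ran kallisto 0.46.0 against Ensembl 96 (GRCh38). The deposited estimated counts and TPM are per transcript and carry no batch correction. Here they were summed per gene by GENCODE 29 symbols (169797 of 188753 transcripts matched, 97.4% to 97.5% of the counts). Rounded counts were tested in R 4.3.3 with edgeR 4.0.16 (TMM, the filterByExpr cut-offs 10 per library and 15 in all, quasi-likelihood test with Benjamini-Hochberg adjustment over 15098 genes), with group and a term for each experiment. CPM are scaled by TMM; log2 CPM values within experiments have a prior count of 2. Groups and experiments came from the sample labels. That experiments pair the libraries was checked on deviations from group means: r was 0.038 to 0.529 in the 18 same-experiment pairs and -0.373 to 0.053 in the 36 others. The study's own batch, experiment 1 against 2 and 3, was an alternative, as were DESeq2 1.42.0, limma 3.58.1 on TPM in log2 (pseudocounts 1 and 0.1), other filters and each library left out. The procedure was tested on simulated data. The depth of 4008293 counts in the shallowest library limits low genes most. Genes named are the 9 members, MITF and SOX10, genes of the other pigment lists called in a comparison with GFP (at most 5 each way), the 5 genes most alike, and the markers. The markers and overlapping genes singled out were chosen after their values were seen. The members, lists and tests were chosen with earlier results of these data known. Promoter sequences are from RefSeq.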

Additional observations from a re-analysis of the deposited data

How the results depend on the processing

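Of 788 values of single members against GFP under an alternative, 784 kept their sign and 721 stayed on their side of the threshold. With WT, 0 members were called, and 1 with DESeq2 (OCA2), limma at a pseudocount of 1 (TYRP1) or no filter (DCT), and 0 to 1 with a library left out. With ΔGS, 2 were called, 0 without the replicate block (with the study's batch term or none) or from experiments 2 and 3, 1 (TYRP1 higher, with DCT and OCA2 lost) with limma at either pseudocount, 1 (DCT) in a fit of the groups compared, 3 (with SLC24A5) with DESeq2 or no filter, and 0 to 3 with a library left out. With ΔADAM, 2 were called, 0 without the replicate block (with either) or from experiments 2 and 3, 1 (again TYRP1 alone) with both limma fits, 3 with DESeq2 (with SLC24A5) or in a fit of the groups compared (with MLANA), and 0 to 2 with a library left out. For the mean of the constructs, 2 were called, also without the replicate block but with the batch term. Without both or from experiments 2 and 3, 0 were called, and with DESeq2 or no threshold on the fold change 4. With a library left out it was 0 to 4. It was 0 without the GFP library of experiment 1, and 4, namely DCT, MLANA, OCA2 and SLC24A5, without the WT library of experiment 3. Here limma at either pseudocount put TYRP1 past the threshold, at up to 1.68 (lowest limma adjusted p = 0.009897), and DCT and OCA2 stayed called. Without the block, all genes called fell from 355 to 6 with WT, from 708 to 69 with ΔGS and from 784 to 168 with ΔADAM, and no further member call changed. In the comparisons between constructs and per transcript, 0 were called under each alternative run. The cause of these changes was not tested.

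Signs turned for values near 0. GPR143 with ΔGS, at 0.02, went to -0.16 and -0.18 with limma and ranged from -0.19 to 0.17 with a library left out. In WT against both variants, TYR (-0.03) went to 0.0073 with no batch term and 0.10 from experiments 2 and 3, TYRP1 (0.02) to -0.0712 from experiments 2 and 3, PMEL (-0.03) to 0.0318 at either pseudocount and SLC45A2 (0.14) to -0.0574 and -0.0873 with limma. With a library left out the ranges were -0.20 to 0.12 for TYR, -0.19 to 0.30 for TYRP1, -0.22 to 0.52 for DCT, -0.12 to 0.0226 for PMEL, -0.32 to 0.21 for MLANA, -0.0584 to 0.29 for SLC45A2 and -0.0893 to 0.45 for SLC24A5. In ΔGS against ΔADAM, DCT (0.00) went to -0.0186 with no batch term, -0.0061 with RLE factors, -0.0063 with DESeq2, -0.094 and -0.0951 with limma, -0.0035 with 10 counts in every library and -0.0604 from experiments 2 and 3. With limma, TYR went to -0.0359 and -0.0417, TYRP1 to 0.0887 and 0.14, PMEL to -0.0153 at either pseudocount, GPR143 to -0.0804 and -0.0973 and OCA2 to -0.0182 and -0.025. With a library left out the ranges were -0.0877 to 0.12 for TYR, -0.13 to 0.21 for DCT, -0.0086 to 0.14 for PMEL, -0.11 to 0.32 for MLANA, -0.46 to 0.0408 for SLC45A2 and -0.10 to 0.21 for OCA2. The low counts of TYRP1 and SLC45A2 in the shallowest library limit what can be seen there.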
